A study of Mus musculus with 32 samples.

Results

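The genes described here encode the proteins of tight, adherens and desmosomal junctions of the epithelium, together with a few adhesion and matrix receptors and polarity proteins that act with them. They are 39 genes, chosen by name, of 23517 in the table, and all 39 were listed there. They were read in 6 role groups, which were 7 claudins, 6 tight junction partners, 9 adherens junction genes, 9 desmosome genes, 4 other adhesion and matrix receptors and 4 polarity genes. The cells came from colonoids, which are epithelial organoids grown in Matrigel and L-WRN medium from proximal colon crypts of Lgr5-EGFP-IRES-CreERT2 mice. The transgene marks cells with an active Lgr5 promoter, which in the colon are stem cells and early progenitors, and EGFP+ cells were sorted. The purity of the sort was not tested, and transcripts of goblet cell and colonocyte markers were plentiful in every sum. The growth protocol names no nerve, immune or stromal cells in the cultures. Each of 8 mice gave a culture left untreated (UT) and a culture given fresh bethanechol (Bch), an agonist of muscarinic acetylcholine receptors, at 250 nM for 4 days. All groups carry the same transgene. Mice 1 to 4 are labelled male with sorted cells as the source. Mice 7 to 10 have no sex label and name colonic organoids as their source. They were taken to be female, since the design text lists both sexes with 4 mice each. RNA of mice 7 to 10 was prepared with the Mini kit and RNA of mice 1 to 4 with the Plus Micro kit, so sex, kit and labelled source cannot be told apart between the sets.

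Tight junctions close the gap between neighbouring epithelial cells, and their claudins set which ions pass between the cells. Adherens junctions hold cells together through cadherins and nectins that are tied to actin by catenins and afadin. Desmosomes add mechanical strength through their own cadherins, desmogleins and desmocollins, which plakoglobin, plakophilins and desmoplakin link to keratin filaments. Polarity proteins of the Par and Crumbs complexes place these junctions at the apical side of the cell.

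Expression was measured as unique molecular identifiers (UMIs), each standing for 1 captured transcript whatever its length, so levels of different genes are compared without division by length. Levels are CPM (UMIs scaled to a common library total) after TMM normalisation, and 2 technical replicates of each mouse and treatment were summed before any test. The 16 sums held 557512 to 4050342 UMIs, and untreated mouse 3 was the shallowest. Most sorts gave 3000 cells, with 13114 for untreated mouse 1, 3504 for Bch-treated mouse 1, 2401 for untreated mouse 9 and 2361 for untreated mouse 3. Lgr5 was measured in every sum, at 12.5 to 31.0 CPM in mice 7 to 10 and 16.0 to 38.9 CPM in mice 1 to 4. In the untreated sums alone it was at 12.5 to 26.5 and 29.2 to 38.9 CPM, without overlap between the sets. The summed level of 14 stem cell markers was 742 to 920 CPM in mice 7 to 10 and 927 to 1179 CPM in mice 1 to 4, and that of 15 colonocyte markers was 2738 to 3672 and 1924 to 3062 CPM. Over all sums, 11 goblet cell markers summed to 3647 to 14357.5 CPM, 10 enteroendocrine markers to 305 to 1171, 8 tuft cell markers to 5.87 to 24.7, 12 cycling markers to 1037 to 1548 and 10 dissociation genes to 964 to 1592 CPM. Of 8 mesenchymal, 8 immune and 6 endothelial markers, 3, 6 and 2 were in the table. They summed to at most 5.29, 9.05 and 3.23 CPM in any sum. Of the muscarinic receptors only Chrm1 and Chrm3 had any UMI, at up to 3.17 CPM together. The 4 Y-linked markers summed to 4.50 to 12.7 CPM in mice 7 to 10 and to 50.2 to 89.9 CPM in mice 1 to 4, and Xist was at 44.2 to 163 and 12.0 to 24.4 CPM. Neither was absent from any sum. The source of the Y-linked UMIs in mice 7 to 10 and of the Xist UMIs in mice 1 to 4 was not tested. In such bulk samples, fewer cells of a type and less RNA per cell cannot be told apart.

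Sequences upstream of the start were taken from RefSeq (GRCm38.p6), whose table matched 26 of the 39 genes. Shown are the 250 bases before the start of Cldn7 and Epcam, the genes with the highest levels among claudins and adhesion receptors, and of Pkp4 and Pard6b, the genes with the smallest p for Bch in mice 7 to 10. Capitals mark GGGCGG (the core of an SP1 motif) or CAGGTG (an E-box) on either strand.
Cldn7, chr11:69964529-69964778, plus strand: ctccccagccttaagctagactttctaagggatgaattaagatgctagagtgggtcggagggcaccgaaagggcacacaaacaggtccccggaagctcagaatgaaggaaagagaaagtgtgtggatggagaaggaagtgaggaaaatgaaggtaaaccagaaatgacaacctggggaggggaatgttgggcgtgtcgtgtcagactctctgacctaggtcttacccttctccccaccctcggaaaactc
Epcam, chr17:87635729-87635978, plus strand: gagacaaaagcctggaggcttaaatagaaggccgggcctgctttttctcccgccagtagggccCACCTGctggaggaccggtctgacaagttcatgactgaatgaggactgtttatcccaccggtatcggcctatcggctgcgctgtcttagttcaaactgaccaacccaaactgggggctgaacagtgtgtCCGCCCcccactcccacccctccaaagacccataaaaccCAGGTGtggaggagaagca
Pkp4, chr2:59160600-59160849, plus strand: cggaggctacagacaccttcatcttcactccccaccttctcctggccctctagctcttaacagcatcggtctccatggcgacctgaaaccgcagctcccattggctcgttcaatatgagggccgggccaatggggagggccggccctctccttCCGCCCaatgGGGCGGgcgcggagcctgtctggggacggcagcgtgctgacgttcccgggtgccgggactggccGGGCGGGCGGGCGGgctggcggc
Pard6b, chr2:168080754-168081003, plus strand: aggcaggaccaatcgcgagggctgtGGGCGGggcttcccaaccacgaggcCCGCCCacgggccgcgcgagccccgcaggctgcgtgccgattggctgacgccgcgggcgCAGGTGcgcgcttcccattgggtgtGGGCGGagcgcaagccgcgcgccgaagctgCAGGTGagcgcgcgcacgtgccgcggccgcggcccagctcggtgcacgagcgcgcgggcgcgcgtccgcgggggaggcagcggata

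The Cldn7 sequence held neither motif, with a GC content of 51.2%. The Epcam sequence held 1 SP1 core and 2 E-boxes at a GC content of 56.4%. The Pkp4 sequence held 5 SP1 cores, of which 3 overlap as a repeat next to the start, and no E-box at a GC content of 68.4%. The Pard6b sequence held 3 SP1 cores and 2 E-boxes at a GC content of 77.6%. Over the 26 genes, GGGCGG was present in 21 (80.8%), against 32.94% of 27025 RefSeq promoters of the same length, and the median GC content was 62.6% against 52.0%. Both used the first start listed for each gene. The 27025 were not matched to the junction genes for expression or gene type, so these shares are not shown to be particular to junction genes. CAGGTG was present in 7 (26.9% against 17.1%), namely in Cldn4, Tjp3, F11r, Nectin2, Epcam, Pard6b and Patj. The AP-1 motif TGANTCA was present in 3 (11.5% against 6.87%), the grainyhead motif AACCNGTT in 1 (3.8% against 1.71%) and TATAAA in 2 (7.7% against 12.97%). TATAAA was found in Cldn2 and Marveld2. These are matches of letters, and binding was not measured.

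Junction transcripts were abundant in the sorted cells and spanned a wide range of levels. The 39 genes together made up 4569 to 5511 CPM of a sum, and Epcam, Cldn7 and Cldn3 alone gave 52.6% to 64.3% of that. Epcam, an adhesion molecule of epithelial cells that binds claudin-7, was highest at 1145 CPM (mean of 16 sums), ahead of Cldn7 at 1014 and Cldn3 at 891 CPM. These 3 genes were above 500 CPM, 7 more lay between 100 and 500 CPM, 16 between 20 and 100 CPM and 13 at or below 20 CPM. Over the 8 untreated sums, Epcam (1133 ± 116 CPM, SD, n = 8), Cldn7 (990.3 ± 73.1), Cldn3 (879 ± 77.7), Cldn4 (286 ± 58.7) and Cldn15 (168 ± 36.9) followed each other in steps larger than the spread between mice. Below Cldn15 the order was mostly unresolved, because of all 38 steps between neighbours only 6 were larger than the larger SD of both genes. The other resolved steps were from Itgb1 (82.4 CPM) to Nectin3 (54.4 CPM) and from Dsc2 (42.0 CPM) to Ocln (27.8 CPM). At the low end were Ppl at 7.23, Nectin1 at 3.45 and Evpl at 2.41 CPM (means of 16 sums). Nectin1 had 0 UMIs in untreated mouse 7, and Evpl had 0 UMIs in Bch-treated mouse 7.

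**Figure D1:**
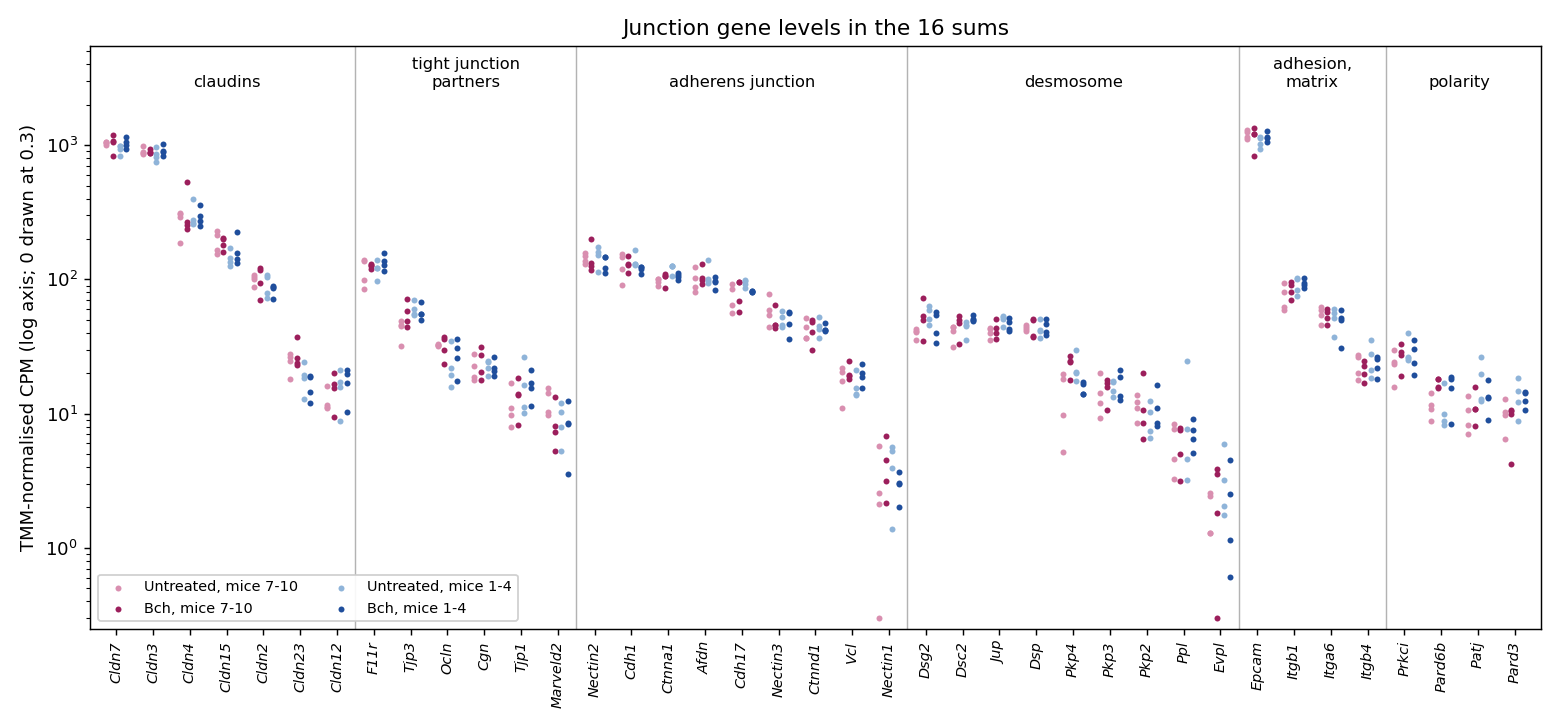
Level of each of the 39 genes in the 16 sums, as TMM-normalised CPM on a log axis with zero values drawn at 0.3, ordered by mean level within 6 role groups. Each point is 1 mouse and colour gives set and treatment. Epcam, Cldn7 and Cldn3 lie near 1000 CPM in all sums, and the points of the 4 groups overlap for most genes.

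Among the claudins, 3 genes that are known mainly as barrier-forming in the gut, Cldn3, Cldn4 and Cldn7, carried most of the UMIs. Of the UMIs of all 7 claudins, Cldn7 held 40.5% ± 2.59 (SD over 16 sums), Cldn3 35.6% ± 1.02 and Cldn4 11.9% ± 3.04. The pore-forming claudins were lower, with 6.84% ± 1.18 for Cldn15, which forms a sodium channel, and 3.74% ± 0.582 for Cldn2, which forms a channel for cations and water. Cldn23 (0.861% ± 0.240) and Cldn12 (0.608% ± 0.177) were minor. The Cldn3 share was the steadiest of the larger ones, between 34.1% and 37.5% in the 16 sums. The Cldn4 share varied most of the larger ones, from 7.64% in untreated mouse 10 to 21.1% in Bch-treated mouse 7. Cldn2 and Cldn15 UMIs together were 0.132 ± 0.0232 of those of Cldn3, Cldn4 and Cldn7 in untreated mice 7 to 10 and 0.127 ± 0.0158 with Bch (SD, n = 4), and 0.113 ± 0.0136 and 0.111 ± 0.0119 in mice 1 to 4. In both sets, untreated and Bch-treated values of this ratio differed by less than the spread between mice.

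**Figure D2:**
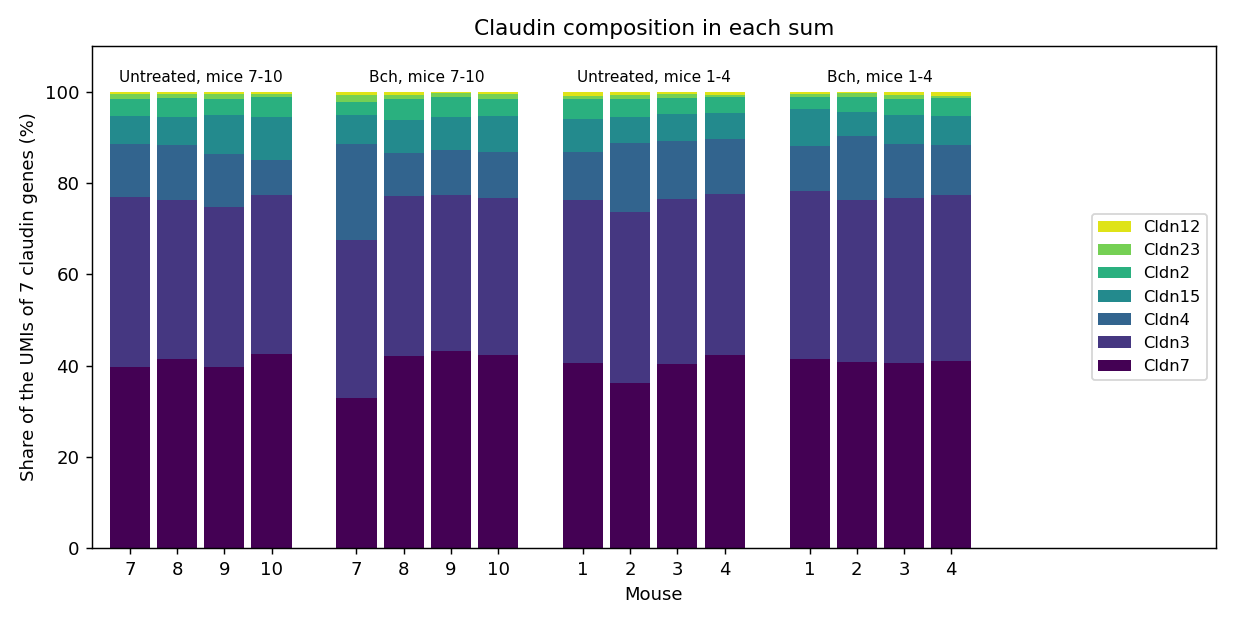
Share (%) of the UMIs of 7 claudin genes held by each gene, 1 stacked bar per sum. Cldn7 and Cldn3 make up most of every bar. The bar of Bch-treated mouse 7 has the widest Cldn4 segment, 21.1%.

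The first comparison asked whether Bch changed junction genes in mice 7 to 10. None of the 37 genes tested passed the threshold of an adjusted p of 0.05 (edgeR quasi-likelihood test, mouse as block), where 0% of all 9515 genes passed. DESeq2 also called 0. At an unadjusted p under 0.05, 3 genes were higher with Bch (8.11%, background 2.48%), namely Pkp4, Pard6b and Tjp3, and 0 were lower (background 1.3%), and by DESeq2's Wald test 1 gene was, Pkp4. Nectin1 and Evpl were too low to be tested. The median log2 change was 0.074 over the 37 genes and -0.0022 over all genes tested, with 23 of the 37 above 0 and 14 below. Less the median of all genes it was 0.0762, and 0.0375 without mouse 9. The sizes that the data allow were limited. The 95% interval lay within ±1 on the log2 scale for 34 of the 37 genes and within ±0.5 for 17.

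In mice 7 to 10 the gene with the smallest p was Pkp4, a plakophilin-family protein of desmosomes and adherens junctions. Pkp4 was at 5.17, 18.0, 9.72 and 19.8 CPM in untreated mice 7, 8, 9 and 10 and at 24.3, 26.7, 24.8 and 17.7 CPM with Bch. It was higher with Bch in mice 7, 8 and 9 and lower in mouse 10, and untreated mice 7 and 9 were the lowest sums (log2 change 0.80 ± 0.29 SE, 95% interval 0.22 to 1.38, edgeR unadjusted p = 0.00789, adjusted p = 0.999). Pkp4 rests on few molecules, 606 UMIs over the 16 sums and 8 in untreated mouse 7, the sum with the fewest. Pard6b, a subunit of the Par polarity complex, was at 14.2, 11.6, 10.7 and 8.85 CPM untreated and 15.8, 15.6, 18.1 and 18.2 CPM with Bch. All 4 mice were higher with Bch and the groups did not overlap (log2 change 0.62 ± 0.29 SE, 95% interval 0.047 to 1.20, edgeR unadjusted p = 0.0346, adjusted p = 0.999). It was the only gene of the 37 whose Bch values all lay above the untreated ones, against 1.25% of all genes, and 0 of the 37 had all Bch values below, against 0.904%. Tjp3, the scaffold ZO-3 of tight junctions, was at 49.1, 45.6, 31.7 and 44.8 CPM untreated and 58.1, 71.0, 49.2 and 44.6 CPM with Bch, higher in 3 of 4 mice (log2 change 0.37 ± 0.18 SE, 95% interval 0.0082 to 0.74, edgeR unadjusted p = 0.0453, adjusted p = 0.999). Leaving out mouse 10 raised the log2 change of Pkp4 to 1.23, with an adjusted p of 0.137, and leaving out mouse 7 lowered it to 0.54, with an unadjusted p of 0.0717. The unadjusted p of Pard6b was 0.0569, 0.0977 and 0.172 without mice 8, 9 and 10, and that of Tjp3 was 0.221 and 0.179 without mice 8 and 9, so each of the 3 genes lost an unadjusted p under 0.05 when 1 mouse was left out. The 3' end of Tjp3 lies opposite that of Apba3, whose 663 UMIs compare with 1770 for Tjp3, and the strand used in counting is not given in the sources used here. Vcl, the vinculin gene, likewise lies opposite Ap3m1 at its 3' end (542 UMIs, against 610 for Vcl), while the genes opposite Cldn3, Nectin2 and Dsg2 held 33, 149 and 3 UMIs.

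The lowest p values among genes that were lower with Bch in mice 7 to 10 belonged to Marveld2, Nectin3 and Epcam. Marveld2, the tricellulin gene of contacts between 3 cells, was at 14.2, 15.4, 10.2 and 9.76 CPM untreated and 5.28, 13.3, 8.13 and 7.36 CPM with Bch (log2 change -0.49 ± 0.33 SE, 95% interval -1.15 to 0.16, edgeR unadjusted p = 0.139, adjusted p = 0.999), and without mouse 7 the log2 change was -0.30. It was the only gene of the 37 that was lower in all 4 mice (2.7%, background 5.54%), while Dsc2, Pard6b and Patj were higher in all 4 (8.11%, background 5.84%). Nectin3, an adhesion receptor of adherens junctions, was at 43.9, 59.1, 54.2 and 77.5 CPM untreated and 45.4, 64.6, 46.1 and 43.3 CPM with Bch (log2 change -0.25 ± 0.18 SE, 95% interval -0.61 to 0.12, edgeR unadjusted p = 0.183, adjusted p = 0.999), and without mouse 10 its log2 change was -0.012. Epcam was at 1105, 1148, 1257 and 1297 CPM untreated and 831, 1223, 1351 and 1221 CPM with Bch (log2 change -0.073 ± 0.15 SE, 95% interval -0.37 to 0.23, edgeR unadjusted p = 0.631, adjusted p = 0.999). Only mouse 7 moved by a large amount, and without it the log2 change of Epcam was 0.042.

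By role, the medians in mice 7 to 10 ran from -0.055 to 0.22, where the median of all genes was -0.0022 and no gene passed the test. The median log2 change was 0.0092 for the 7 claudins, 0.16 for the 6 tight junction partners, 0.064 for 8 adherens junction genes, 0.11 for 8 desmosome genes, -0.055 for the 4 adhesion and matrix receptors and 0.22 for the 4 polarity genes. With 1 mouse left out these medians moved, and without mouse 9 they were -0.017 for the tight junction partners, 0.034 for the adherens junction genes and 0.097 for the polarity genes, while without mouse 7 that of the receptors was 0.058. Cldn7 and Cldn3, for which the intervals were among the narrowest, had log2 changes of -0.0058 ± 0.15 and -0.012 ± 0.14 (SE). Cldn4 differed by mouse, with 305, 311, 294 and 188 CPM untreated and 532, 239, 269 and 255 CPM with Bch, so that mice 7 and 10 were higher with Bch and mice 8 and 9 lower. In mice 7 to 10 the summed level of the 11 goblet cell markers moved with it, at 9298, 5899, 8148 and 3647 CPM in untreated mice 7, 8, 9 and 10 and 14357.5, 5418, 5420.2 and 6922 CPM with Bch. Bch-treated mouse 7 was the highest of these sums and untreated mouse 10 the lowest for Cldn4 and for the goblet markers alike. In mice 1 to 4 they did not move together. Cldn4 was at 257, 395, 263 and 278 CPM in untreated mice 1, 2, 3 and 4 and 271, 362, 296 and 252 CPM with Bch, and the goblet markers were at 4722, 5966, 6985 and 4584 CPM untreated and 3989, 5316, 5478 and 4345 CPM with Bch. There Cldn4 was higher with Bch in mice 1 and 3 while the goblet markers were lower in all 4 mice, and untreated mouse 2, highest for Cldn4, was not the highest for the goblet markers. The part of goblet cells in the Cldn4 values was not tested. Over the 37 genes, the median log2 ratio per mouse, less that of all genes, was 0.056, 0.16, 0.15 and -0.048 in mice 7, 8, 9 and 10.

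**Figure D3:**
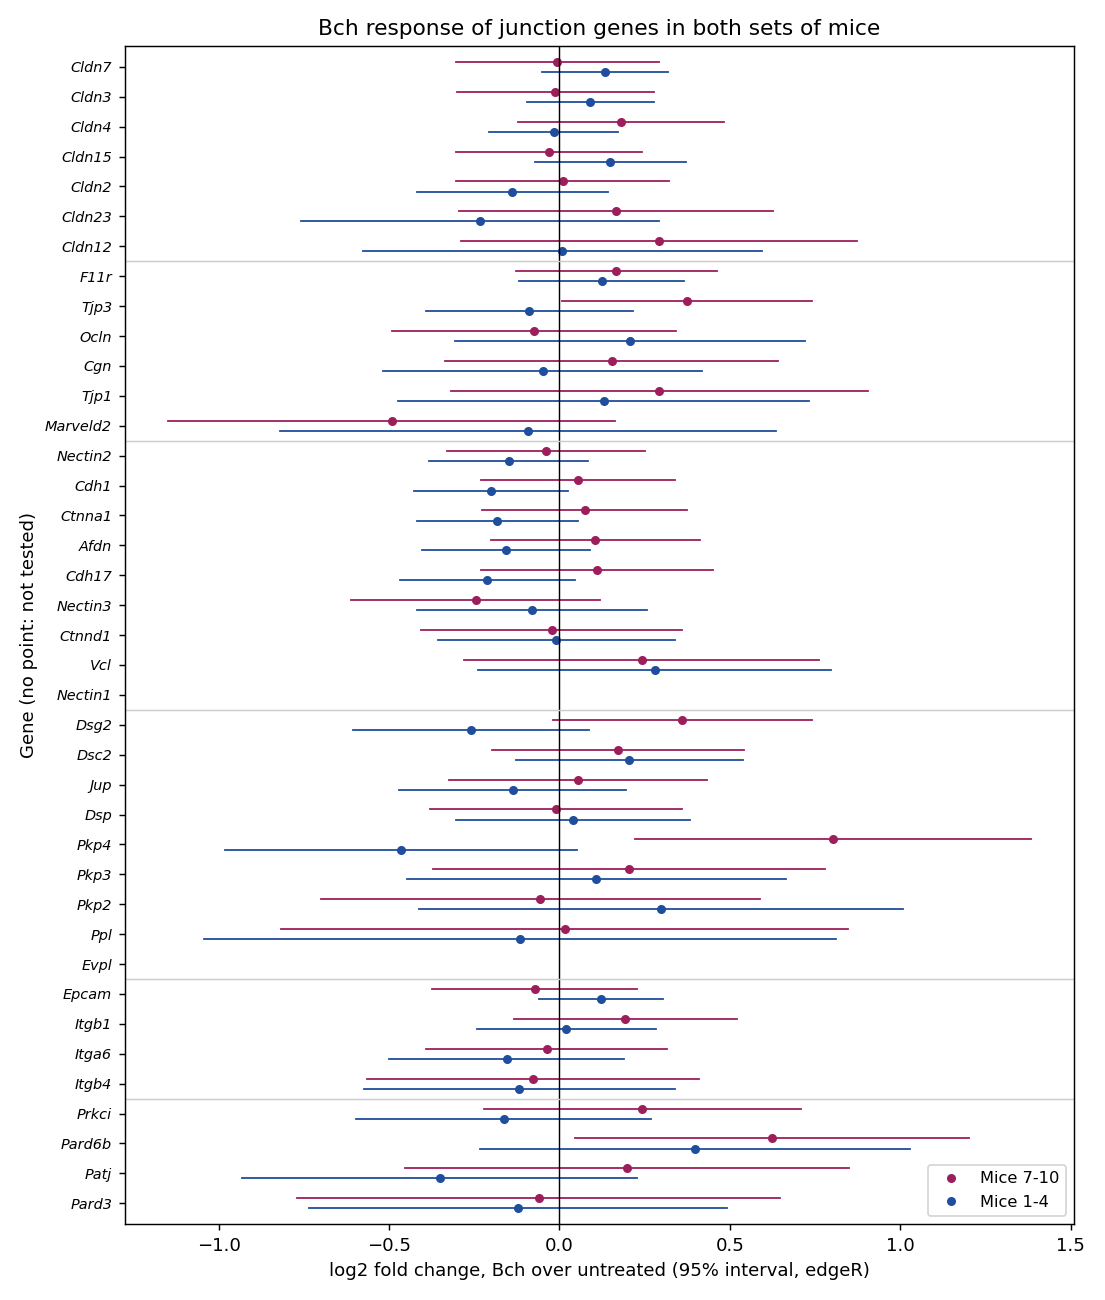
Log2 fold change of each gene with Bch over untreated, with 95% intervals from edgeR, in mice 7 to 10 and mice 1 to 4. Genes run from top to bottom by role group. In mice 7 to 10 the intervals of Pkp4, Tjp3 and Pard6b exclude 0, and in mice 1 to 4 no interval does. Nectin1 and Evpl have no point because they were not tested.

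The same question was asked in mice 1 to 4, where no junction gene passed either. Of the 37 genes tested, 0 had an adjusted p under 0.05 by edgeR or DESeq2, against 0.021% of all 9509 genes by edgeR. At an unadjusted p under 0.05, 0 genes were higher (background 4.46%) and 0 lower (background 3.26%), by either tool. The median log2 change was -0.081 over the 37 genes and 0.0012 over all genes, with 15 above 0 and 22 below. The 95% interval lay within ±1 for 34 genes and within ±0.5 for 19.

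Of the 8 adherens junction genes tested in mice 1 to 4, 7 had a log2 change below 0, against 49.7% of all genes, with a median of -0.15, and no single one passed the test. Untreated mouse 3, the shallowest sum, had the highest adherens junction total, 819 CPM against 659 to 719 CPM in the other untreated mice of the set. Without mouse 3, 6 of 8 were below 0 with a median of -0.10, Afdn moved from -0.16 to -0.083, Nectin2 from -0.15 to -0.020 and Ctnnd1 from -0.0093 to 0.073. Cdh1, which encodes E-cadherin, was at 131, 131, 166 and 128 CPM in untreated mice 1, 2, 3 and 4 and at 109.8, 124, 119.6 and 123 CPM with Bch (log2 change -0.20 ± 0.11 SE, 95% interval -0.43 to 0.027, edgeR unadjusted p = 0.0818, adjusted p = 0.731). Cdh17, which encodes the intestinal LI-cadherin, was at 92.5, 86.5, 96.9 and 99.4 CPM untreated and 80.1, 81.3, 80.2 and 81.4 CPM with Bch (log2 change -0.21 ± 0.13 SE, 95% interval -0.47 to 0.044, edgeR unadjusted p = 0.102, adjusted p = 0.756). For both cadherins every Bch value lay below every untreated one. Pkp4 was at 17.5, 20.5, 30.0 and 20.0 CPM untreated and 14.0, 17.2, 16.6 and 14.0 CPM with Bch, also without overlap (log2 change -0.46 ± 0.25 SE, 95% interval -0.98 to 0.051, edgeR unadjusted p = 0.0762, adjusted p = 0.724). These 3 were the genes of the 37 whose groups did not overlap with Bch lower (8.11%, background 1.35%), and Dsc2 was the only one with Bch higher (2.7%, background 1.5%). In all 4 mice, 4 genes were lower (10.8%, background 6.86%), which were the same 3 and Cldn23, and 2 were higher (5.41%, background 8.22%), Dsc2 and Vcl. Untreated mouse 3 also had the highest value of Cdh1, Afdn and Pkp4, and without mouse 3 the log2 change of Cdh1 was -0.13 and that of Pkp4 was -0.36.

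On the higher side in mice 1 to 4, the smallest p values belonged to Cldn7, Epcam and Cldn15. Cldn7 was at 988, 945, 839 and 992 CPM untreated and 1145, 1051, 1007 and 935 CPM with Bch (log2 change 0.13 ± 0.091 SE, 95% interval -0.052 to 0.32, edgeR unadjusted p = 0.152, adjusted p = 0.802). Epcam was at 1157, 1020.5, 937 and 1139 CPM untreated and 1285, 1151, 1059.5 and 1135 CPM with Bch (log2 change 0.12 ± 0.089 SE, 95% interval -0.059 to 0.30, edgeR unadjusted p = 0.179, adjusted p = 0.828). Cldn15 was at 173, 145, 127 and 136 CPM untreated and 226, 133, 156 and 142 CPM with Bch (log2 change 0.15 ± 0.11 SE, 95% interval -0.072 to 0.37, edgeR unadjusted p = 0.180, adjusted p = 0.828). Without mouse 1 the log2 change of Cldn15 was 0.057 and without mouse 2 it was 0.25, and without mouse 4 that of Cldn7 was 0.21. In these genes mice 1 and 3 were higher with Bch, while mouse 4 was nearly level or lower in Cldn7 and Epcam. The median log2 change was 0.0085 for the claudins, 0.037 for the tight junction partners, -0.038 for the desmosome genes, -0.049 for the adhesion and matrix receptors and -0.14 for the polarity genes. Without mouse 2 the median of the polarity genes was 0.042 and that of the tight junction partners -0.041, without mouse 3 that of the desmosome genes was 0.100, and without mouse 1 that of the receptors was 0.075. Per mouse, the median log2 ratio of the 37 genes, less that of all genes, was -0.045, -0.049, 0.0018 and -0.021 in mice 1, 2, 3 and 4.

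Whether the change with Bch differed between the sets was tested directly. Of 38 genes tested, 0 had an adjusted p under 0.05 by edgeR or DESeq2 (background 0% of 10280 genes). At an unadjusted p under 0.05, 2 genes had the higher change in mice 7 to 10 (5.26%, background 2.41%), Pkp4 and Dsg2, and 0 the lower (background 1.97%). DESeq2 gave the same 2 genes. The median difference was 0.14 on the log2 scale over the 38 genes and -0.0016 over all genes, with 26 genes above 0 and 12 below. For 26 genes the 95% interval of the difference lay within ±1, and for 4 within ±0.5, with standard errors of 0.17 to 0.83 on the log2 scale.

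Pkp4 had the largest difference in change, and both sets contributed to it, with 3 of 4 mice higher in mice 7 to 10 and 4 of 4 lower in mice 1 to 4 (log2 difference 1.26 ± 0.40 SE, 95% interval 0.46 to 2.06, edgeR unadjusted p = 0.00279, adjusted p = 1.00). The untreated mean was 13.2 ± 6.91 CPM in mice 7 to 10 and 22.0 ± 5.48 CPM in mice 1 to 4 (SD, n = 4), and with Bch 23.4 ± 3.92 and 15.4 ± 1.71 CPM. The lowest Pkp4 value, that of untreated mouse 7, rests on 8 UMIs. Without mouse 7 the difference was 0.99 and without mouse 10 it was 1.69. Dsg2, the desmoglein of simple epithelia, was at 41.4, 43.0, 35.3 and 40.3 CPM in untreated mice 7 to 10 and 49.6, 73.1, 53.7 and 34.6 CPM with Bch. In mice 1 to 4 it was at 51.1, 58.7, 63.4 and 45.6 CPM untreated and 33.4, 40.1, 54.0 and 56.9 CPM with Bch. It was higher with Bch in mice 7, 8, 9 and 4 and lower in mice 10, 1, 2 and 3 (log2 difference 0.62 ± 0.26 SE, 95% interval 0.096 to 1.15, edgeR unadjusted p = 0.0215, adjusted p = 1.00). Without mouse 8 the difference of Dsg2 was 0.47, with an unadjusted p of 0.112. Tjp3 followed (log2 difference 0.46 ± 0.23 SE, 95% interval -0.0072 to 0.93, edgeR unadjusted p = 0.0535, adjusted p = 1.00), with 55.2, 60.7, 54.6 and 70.2 CPM in untreated mice 1 to 4 and 55.2, 50.0, 55.5 and 67.4 CPM with Bch, where 3 of 4 mice moved little.

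**Figure D4:**
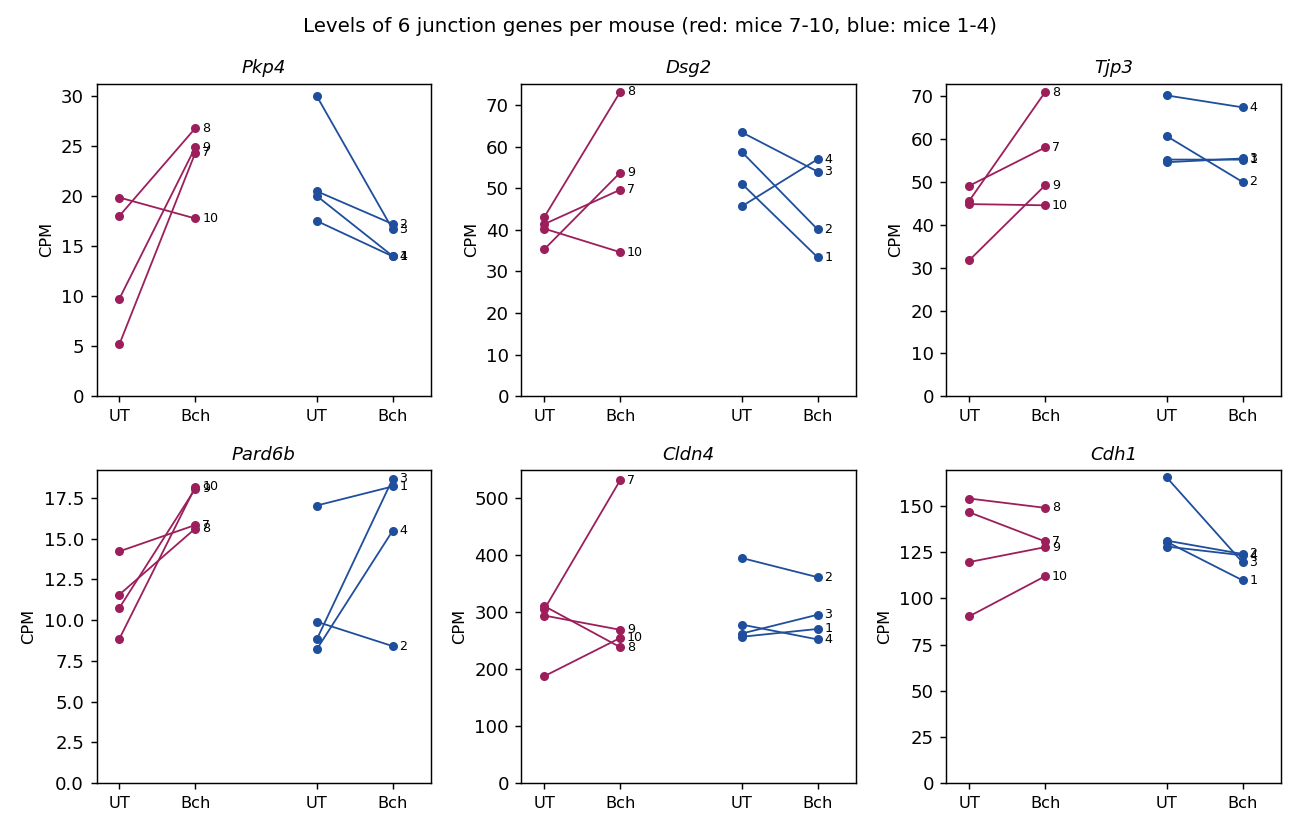
Levels of Pkp4, Dsg2, Tjp3, Pard6b, Cldn4 and Cdh1 in CPM, untreated (UT) and with Bch, with 1 line per mouse and the mouse number at its Bch value. Pkp4 lines slope up in mice 7, 8 and 9 and down in mice 1 to 4 and 10. Pard6b lines slope up in all of mice 7 to 10 and in mice 1, 3 and 4.

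By role, the median difference in change was 0.31 for the 4 polarity genes, all of which were above 0 (49.8% of all genes were), 0.26 for 9 adherens junction genes, 0.14 for the claudins, 0.11 for 8 desmosome genes, 0.100 for the tight junction partners and 0.079 for the adhesion and matrix receptors. These medians also depended on single mice. Without mouse 2 the polarity median was 0.16 with 3 of 4 above 0, as Pard3 turned from 0.063 to -0.21, and Pard3 was also below 0 without mouse 8. The adherens junction median was 0.12 without mouse 7, and with 1 mouse left out the medians of the claudins, tight junction partners and receptors reached -0.014, -0.056 and -0.018 at the lowest and that of the desmosome genes 0.013. The claudins Cldn3, Cldn15, Cldn7, Cldn4 and Cldn2 had standard errors of 0.17 to 0.21, below the median of 0.25 over the 38 genes. Of the polarity and claudin genes, the intervals of 5 reached above 1 on the log2 scale, namely Prkci, Patj (0.55, 95% interval -0.29 to 1.39), Cldn23 (0.40, -0.29 to 1.08), Cldn12 (0.28, -0.54 to 1.10) and Pard6b (0.22, -0.62 to 1.07). Without mouse 2 the difference of Cldn12 was 0.020 and that of Pard6b 0.023, and without mouse 9 that of Prkci was 0.24. Prkci, the atypical protein kinase C of the Par complex and the highest of the polarity genes, was at 23.3, 24.4, 15.9 and 29.6 CPM untreated and 19.0, 33.1, 27.5 and 28.6 CPM with Bch in mice 7 to 10, and at 25.8, 39.6, 26.4 and 25.1 and 23.7, 30.2, 35.3 and 19.5 CPM in mice 1 to 4 (log2 difference 0.40 ± 0.31 SE, 95% interval -0.22 to 1.03, edgeR unadjusted p = 0.202, adjusted p = 1.00). On the lower side were Epcam (log2 difference -0.20 ± 0.17 SE, 95% interval -0.54 to 0.15, edgeR unadjusted p = 0.255, adjusted p = 1.00), Cldn15 (log2 difference -0.18 ± 0.17 SE, 95% interval -0.53 to 0.16, edgeR unadjusted p = 0.292, adjusted p = 1.00) and Ocln (log2 difference -0.29 ± 0.33 SE, 95% interval -0.96 to 0.38, edgeR unadjusted p = 0.391, adjusted p = 1.00). Cldn15 was at 165, 156, 215 and 231 CPM in untreated mice 7 to 10 and 160.5, 181, 199 and 203 CPM with Bch. Ocln, which encodes occludin, was at 32.3, 32.1, 32.2 and 33.3 CPM untreated and 37.0, 36.2, 29.8 and 23.4 CPM with Bch in mice 7 to 10, and at 35.0, 21.8, 15.9 and 19.5 and 17.6, 36.3, 30.8 and 26.0 CPM in mice 1 to 4. Ocln was lower with Bch in mouse 1 and higher with Bch in mice 2, 3 and 4, and without mouse 1 the log2 change in mice 1 to 4 was 0.66, with an unadjusted p of 0.0176. Without mouse 1 the difference in change was -0.72 for Ocln, with an unadjusted p of 0.0357, and -0.072 for Cldn15, and without mouse 7 it was -0.091 for Epcam.

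A change shared by all 8 mice was fitted over the 16 sums. Of 38 genes, 0 had an adjusted p under 0.05 by edgeR or DESeq2 (background 0% of 10280 genes). At an unadjusted p under 0.05, 1 gene was higher (2.63%, background 3.13%), by either tool, and 0 were lower (background 2.27%), so the count was at the background. That gene was Pard6b, at 17.0, 9.90, 8.81 and 8.20 CPM in untreated mice 1 to 4 and 18.2, 8.40, 18.7 and 15.5 CPM with Bch. It was higher with Bch in 7 of 8 mice, all but mouse 2 (log2 change 0.52 ± 0.21 SE, 95% interval 0.11 to 0.94, edgeR unadjusted p = 0.0150, adjusted p = 0.902), and without mouse 10 the log2 change was 0.43 with an unadjusted p of 0.0654. It rests on few molecules, 446 UMIs over the 16 sums and 5 in the sum with the fewest. The median over the 38 genes was 0.043, against 0.0063 over all genes, and every gene's 95% interval lay within ±1, with 26 within ±0.5.

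Next in this shared fit came Dsc2 and F11r on the higher side. Dsc2, a desmocollin, was at 44.6, 44.3, 41.4 and 31.4 CPM in untreated mice 7 to 10 and 53.8, 49.7, 47.4 and 32.9 CPM with Bch. In mice 1 to 4 Dsc2 was at 47.9, 44.9, 35.2 and 46.1 CPM untreated and 49.2, 54.2, 51.0 and 50.0 CPM with Bch. It was higher with Bch in all 8 mice, most in mouse 3 (log2 ratio 0.52) and by 0.037 to 0.27 in the others (log2 change 0.19 ± 0.12 SE, 95% interval -0.048 to 0.43, edgeR unadjusted p = 0.114, adjusted p = 0.906). F11r, which encodes the junctional adhesion molecule JAM-A, was at 138, 139, 84.4 and 98.5 CPM untreated and 131, 129, 125 and 119 CPM with Bch in mice 7 to 10, and at 122, 121, 96.9 and 139.9 and 115, 128, 157 and 137 CPM in mice 1 to 4 (log2 change 0.15 ± 0.094 SE, 95% interval -0.039 to 0.34, edgeR unadjusted p = 0.117, adjusted p = 0.906). On the lower side were Nectin3 (log2 change -0.17 ± 0.12 SE, 95% interval -0.42 to 0.083, edgeR unadjusted p = 0.185, adjusted p = 0.906), Marveld2 (log2 change -0.31 ± 0.23 SE, 95% interval -0.78 to 0.16, edgeR unadjusted p = 0.189, adjusted p = 0.906) and Nectin2 (log2 change -0.097 ± 0.093 SE, 95% interval -0.29 to 0.091, edgeR unadjusted p = 0.302, adjusted p = 0.917). Nectin2, whose untreated mean of 147 CPM lay above that of Cdh1 (133 CPM) by less than the spread between mice, was at 136, 150.3, 159 and 131 CPM in untreated mice 7 to 10 and 199.5, 133, 126 and 118 CPM with Bch. In mice 1 to 4 Nectin2 was at 151, 160.4, 174 and 113 CPM untreated and 147, 148, 112 and 121 CPM with Bch, and its highest value of all, 199.5 CPM, was in Bch-treated mouse 7. In this fit the log2 change of F11r was 0.086 without mouse 9, that of Nectin3 -0.056 without mouse 10, that of Marveld2 -0.20 without mouse 7 and that of Nectin2 -0.037 without mouse 3.

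Untreated cells of both sets were compared to describe how junction genes stood before any Bch. These untreated sums also enter the comparisons above. Of 37 genes, 0 passed an adjusted p of 0.05 by edgeR or DESeq2, against 1.64% of all 9159 genes. At an unadjusted p under 0.05, 1 gene was higher in mice 7 to 10 (2.7%, background 6.66%), Cldn15, and 5 were lower (13.5%, background 6.05%), namely Tjp3, Ctnna1, Dsg2, Patj and Cdh17. DESeq2 gave 5 genes, all of these but Cdh17. With 1 mouse left out, Tjp3 kept an unadjusted p under 0.05 in every fit, and the highest values were 0.0641 for Cldn15, 0.0628 for Ctnna1, 0.0697 for Dsg2, 0.0826 for Patj and 0.155 for Cdh17. The median log2 difference, mice 7 to 10 over mice 1 to 4, was -0.11 over the 37 genes and -0.016 over all genes. By role, it was 0.10 for claudins, -0.065 for tight junction partners, -0.086 for adherens junction genes, -0.26 for desmosome genes, -0.035 for adhesion and matrix receptors and -0.43 for the polarity genes. All 4 polarity genes were below 0, against 52.1% of all genes, from Pard6b at -0.051 to Patj at -0.76, and 3 of 4 were without mouse 1, where Pard6b was at 0.29, or without mouse 10, where it was at 0.072. The polarity median was -0.25 without mouse 2. Without mouse 3 the median of the adherens junction genes was 0.0059, and without mouse 10 it was 0.0019, while that of the tight junction partners was 0.041 without mouse 9, that of the receptors 0.054 without mouse 9 and that of the claudins 0.037 without mouse 3.

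Tjp3 had a mean of 42.8 ± 7.63 CPM in untreated mice 7 to 10 and 60.2 ± 7.22 CPM in untreated mice 1 to 4 (SD, n = 4), without overlap (log2 difference -0.52 ± 0.18 SE, 95% interval -0.89 to -0.15, edgeR unadjusted p = 0.00789, adjusted p = 0.177). Dsg2 was at 40.0 ± 3.33 and 54.7 ± 7.92 CPM, also without overlap (log2 difference -0.44 ± 0.18 SE, 95% interval -0.82 to -0.067, edgeR unadjusted p = 0.0223, adjusted p = 0.274). Ctnna1, which encodes the alpha-catenin that ties cadherins to actin, was at 101, 89.3, 96.2 and 100.4 CPM in untreated mice 7 to 10 and 125, 127, 127 and 106 CPM in untreated mice 1 to 4 (log2 difference -0.33 ± 0.14 SE, 95% interval -0.61 to -0.053, edgeR unadjusted p = 0.0212, adjusted p = 0.268). With Bch, Ctnna1 was at 107, 106, 109 and 87.0 CPM in mice 7 to 10 and 105, 107, 98.9 and 112 CPM in mice 1 to 4, and the groups overlapped. Together with Jup, which encodes plakoglobin, these were the 4 genes with all values lower in mice 7 to 10 (10.8%, background 3.43%), and Cldn7 was the 1 gene with all values higher (2.7%, background 4.57%). The Cldn7 values were 1052, 1063, 997 and 1047 CPM against 988, 945, 839 and 992 CPM, a small step. Cldn15 was at 192 ± 36.7 and 145 ± 19.8 CPM, with overlapping groups (log2 difference 0.38 ± 0.14 SE, 95% interval 0.094 to 0.66, edgeR unadjusted p = 0.0107, adjusted p = 0.202). Ocln (log2 difference 0.41 ± 0.23 SE, 95% interval -0.060 to 0.88, edgeR unadjusted p = 0.0850, adjusted p = 0.481) and Cldn23 (log2 difference 0.35 ± 0.26 SE, 95% interval -0.18 to 0.88, edgeR unadjusted p = 0.187, adjusted p = 0.617) followed. Without mouse 1 the difference of Ocln was 0.71 with an unadjusted p of 0.00776, and without mouse 4 that of Cldn23 was 0.18. Cldn23 was at 24.6, 26.3, 27.6 and 18.0 CPM in untreated mice 7 to 10 and 18.4, 24.4, 19.4 and 12.8 CPM in mice 1 to 4. The 14 stem cell markers summed to 817 to 869 CPM in untreated mice 7 to 10 and 973 to 1173 CPM in untreated mice 1 to 4, the 10 enteroendocrine markers to 521 to 1083 and 305 to 494 CPM, and the 15 colonocyte markers to 2738 to 3672 and 2081 to 2920 CPM. Stem cell and enteroendocrine markers did not overlap between the untreated sets and colonocyte markers did. Lgr5 itself did not overlap either. It was at 12.5 to 26.5 CPM in untreated mice 7 to 10 and 29.2 to 38.9 CPM in untreated mice 1 to 4. The part of these markers in the differences between the untreated sets was not tested.

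Of the 38 genes tested in any of the 5 comparisons, 8 reached an unadjusted p under 0.05 in at least 1 of them (Pkp4, Pard6b, Tjp3, Dsg2, Cldn15, Ctnna1, Patj and Cdh17), and 30 did not in any. The share, 21.1%, was near the background of 22.4% of all 10288 genes tested in any of them. Dsp, which encodes desmoplakin, was among the steadiest, with a CV of 9.48% over the 8 untreated sums, close to Cldn3 at 8.83% and Cldn7 at 7.39%. Tjp1, the scaffold ZO-1, had a CV of 44.1% at 13.7 CPM. Ppl, the periplakin gene, had a CV of 88.0%, with 24.7 CPM in untreated mouse 3 and at most 8.35 CPM in the other untreated sums. In that shallowest sum, 3 UMIs are 5.29 CPM. Over the 16 sums Ppl had 212 UMIs and Tjp1 452, against 28989 for Cldn3. Counting error and spread between mice were not separated in these CVs.

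A wider list of 86 other junction, hemidesmosome and polarity genes was counted in the same way, with 72 of them in the table. In mice 7 to 10, 0 of 54 tested passed an adjusted p of 0.05 by edgeR, and 2 were higher at an unadjusted p under 0.05 (3.7%, background 2.48%) and 0 lower (background 1.3%). Those were Cdhr5, a protocadherin of the brush border (log2 change 0.47 ± 0.18 SE), and Shroom3, an organiser of apical actin (0.70 ± 0.27), with unadjusted p of 0.0601 and 0.140 without mouse 10. In mice 1 to 4, 0 of 52 passed, 0 were higher at an unadjusted p under 0.05 (background 4.46%) and 2 were lower (3.85%, background 3.26%), the polarity gene Crb3 (-0.25 ± 0.11) and the keratin gene Krt20 (-0.76 ± 0.35). Without mouse 3 the log2 change of Crb3 was -0.096, and without mouse 1 that of Krt20 was -0.48. For the difference in change, 0 of 54 passed and 2 were higher at an unadjusted p under 0.05 (3.7%, background 2.41%), Cdhr5 (0.69 ± 0.27) and Magi1 (1.28 ± 0.63, and 0.84 without mouse 3). In the fit of all 8 mice, 0 of 54 passed and 0 had an unadjusted p under 0.05 (background 3.13% higher and 2.27% lower). Between untreated sets, 0 of 51 passed, with 1 gene higher in mice 7 to 10 at an unadjusted p under 0.05 (1.96%, background 6.66%), Krt20 (0.96 ± 0.34), and 3 lower (5.88%, background 6.05%), Mark2 (-0.64 ± 0.24), Pkp1 (-0.98 ± 0.38) and Vasp (-0.29 ± 0.14). Krt20 was at 20.0, 14.8, 50.1 and 16.5 CPM in untreated mice 7, 8, 9 and 10 and 11.3 to 14.1 CPM in untreated mice 1 to 4, and without mouse 9 the difference was 0.39 with an unadjusted p of 0.206. Each of these shares rests on 3 genes or fewer. Median log2 changes of this list were 0.12 in mice 7 to 10 and -0.063 in mice 1 to 4.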

How the data were processed

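RNA of sorted Lgr5-EGFP+ colonoid cells of 8 mice, each untreated and Bch-treated with 2 technical replicates, gave 32 libraries of 267146 to 2119938 UMIs. The authors deposited raw UMI counts per gene, made with the Drop-seq pipeline from barcoded oligo-dT cDNA, GRCm38 and the GENCODE M25 annotation per their methods, while the labels' processing notes name GRCh38. Strand and multi-mapping rules are not given in the sources used here. All 32 columns could be mapped. Blank cells for 1520 genes in technical replicate 2 were read as 0, and none was a junction gene. Positions used to find overlapping genes are those of a GENCODE annotation for GRCm38.

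Technical replicates were summed, and their totals differed by 1.07 to 1.11 times. Similar totals do not show agreement gene by gene. A chi-square per degree of freedom between the replicates, over genes with at least 200 UMIs, was 31.7 to 47.9, far above counting error alone. Over the junction genes it was 1.11 to 4.63. Per total, the log2 ratio of replicate 2 over replicate 1 ran from -0.56 to 0.14 over the 39 genes, below 0 for all but Evpl. On the scale of the TMM-normalised levels, 0 UMIs allow up to 0.710 CPM in the deepest and 5.29 CPM in the shallowest sum (3 UMIs, counting error only). Tests used R 4.3.3 and edgeR 4.0.16 (filterByExpr, TMM, robust quasi-likelihood, Benjamini-Hochberg over all genes tested, threshold 0.05) with the mouse as block, except between untreated sets. Standard errors are the log2 change divided by the square root of F. For log2 ratios within a mouse, 2 was the prior count. DESeq2 1.42.0 was the alternative. Pairs come from the labels, and the correlations across genes of paired deviations were -0.0203 to 0.244. The steps were also run on counts simulated from edgeR's own fitted model. The outcome is not given here and is not used as support. Alternatives were DESeq2, its size factors, no filter, no block, each technical replicate alone, no mitochondrial and ribosomal genes, all 16 sums in 1 fit and each mouse left out.

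The junction genes, wider list and markers were chosen with earlier results of these data known. Values per mouse and full statistics are given, in each comparison, for at most 3 genes in each direction, those of smallest p, and, in each role group, for the gene with the highest level. Further genes named were chosen after their values were seen.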

Additional observations from a re-analysis of the deposited data

Results flagged for a closer look

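Of 156 groups of 4 mice examined, 13 held a value set apart from the other 3 by Dixon's test at the 95% level. Chance flags about 1 in 20 groups. The values below are CPM.

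Cldn4 was set apart in 3 of its 4 groups. It was at 187.6 in untreated mouse 10, below the other untreated mice 7 to 9 at 294 to 311. It was at 532.1 in Bch-treated mouse 7, above the others at 239 to 269, where the goblet cell markers were also highest, and at 395.4 in untreated mouse 2, above the others at 257 to 278. In untreated mouse 3, Cdh1 was at 165.6 (others 128 to 131) and Afdn at 139.2 (others 94.8 to 101), and this sum had the fewest UMIs, 557512. Ctnna1 was at 86.97 in Bch-treated mouse 10 (others 106 to 109.3) and at 106.1 in untreated mouse 4 (others 125 to 127). In untreated mouse 2, Prkci was at 39.6 (others 25.1 to 26.4). Cldn12 was at 16.16 in untreated mouse 7 (others 10.9 to 11.6), and Pard3 at 4.223 in Bch-treated mouse 7 (others 9.94 to 10.7). Nectin3 was at 64.62 in Bch-treated mouse 8 (others 43.3 to 46.1), Cldn2 at 71.0 in Bch-treated mouse 1 (others 86.3 to 89.4) and Ctnnd1 at 47.45 in Bch-treated mouse 4 (others 41.6 to 41.9). By mouse, 3 of the 13 values were from mouse 7, 2 each from mice 2, 3, 4 and 10, 1 each from mice 1 and 8, and 0 from mouse 9.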

How the results depend on the processing

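No junction gene passed an adjusted p of 0.05 in any of 68 alternative fits of the 5 comparisons. Of 408 alternatives of 30 changes of single genes, 407 kept their direction, and Epcam in mice 7 to 10 turned to 0.0423 without mouse 7 (range with a mouse left out -0.1366 to 0.0423). The side of the threshold was the same in all of them, since no gene passed in any fit. The 30 were picked for the smallest p in each direction, which favours a steady direction. Some changes not picked did turn. With a mouse left out in mice 7 to 10, Cldn7 ran from -0.098 to 0.107 and Cdh17 from -0.117 to 0.260, while Dsc2 (0.149 to 0.214) did not turn. The number of genes at an unadjusted p under 0.05 also moved. In mice 7 to 10 it was 3, and 1 by DESeq2's Wald test, 1 with technical replicate 1 alone and 1 to 3 with a mouse left out. In mice 1 to 4 it was 0, and 0 to 2 with a mouse left out (1 without mouse 1, Ocln, and 2 without mouse 4, Ctnna1 and Dsg2). In all 8 mice it was 1, and 2 with technical replicate 2 alone and 0 to 2 with a mouse left out (0 without mouse 10). For the difference in change it was 2, and 1 to 3 with a mouse left out. Between untreated sets it was 6, and 3 with technical replicate 2 alone and 3 to 7 with a mouse left out. The median change of the junction genes less that of all genes was 0.0762 in mice 7 to 10, with 0.0375 to 0.1022 with a mouse left out (lowest without mouse 9) and 0.1148 with technical replicate 1 alone, and 0.0362 in all 8 mice, with 0.0066 to 0.046 with a mouse left out and 0.0083 with no filter. The median change in mice 1 to 4, less that of all genes, was -0.0822, and -0.1198 with no filter, -0.0514 with technical replicate 2 alone and -0.0767 to -0.0476 with a mouse left out. With no replicate block in place of the paired fit, 4 genes in mice 7 to 10 had an unadjusted p under 0.05, 0 in mice 1 to 4, 1 in all 8 mice and 2 for the difference in change, and no call changed. Of the 30 single-gene changes, 16 moved by over 1.5 times when 1 mouse was left out. The cause of these changes was not tested. Fitting all 16 sums at once for the medians was added after seeing the data. Genes near 10 CPM, such as Pard6b, rest on few UMIs per sum.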
